A study of Mus musculus with 4 samples.

Results

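The shortest replication intermediates of mouse embryonic stem (ES) cells were hybridised to 2 of the 4 arrays of the study, and these 2 arrays, chosen by their label, are described here. The strands were 100 to 600 nt long. They came from untreated cells of PGK12.1, a female pluripotent line grown without synchronisation, and had been digested with λ-exonuclease, which degrades DNA without an RNA primer at its 5′ end. On both arrays the nascent strands carried Cy5 and total DNA of the same cells carried Cy3, so that each probe gives a log2 ratio of nascent over genomic DNA. The series gives the 2 hybridisations as biological replicates, named array 1 and array 2 below. DNA on arrays gives no expression markers, so the identity of the cells could not be checked.

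A replication origin (ORI) is a place where DNA synthesis starts, and the shortest RNA-primed strands lie closest to it. In mammalian cells ORIs are often found at gene promoters, in particular at CpG islands, which are stretches rich in C+G in which the dinucleotide CpG has not been lost. Okazaki fragments, the short pieces of the lagging strand, also carry an RNA primer, fall in the same range of size and arise wherever a fork passes.

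The arrays hold 60-base probes on fragments of non-repetitive DNA in a region of chromosome 3 and 2 regions of the X chromosome. Of 19805 tiled probes, 18431 gave a value on array 1 and 16682 on array 2, and 15478 gave both. Spots marked by the image software, nearly always as not uniform, made up 7.07% of array 1 and 16.4% of array 2, and in the columns at one side of array 2 they reached 34.1%. The median processed signal was 287 for nascent strands and 102 for genomic DNA on array 1, and 736 and 267 on array 2. No spot was saturated.

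Of the probes that passed the test described below, the 5 with the highest mean are shown because they carry the main observation, the density of CpG. Capitals mark CpG. Positions are those of exact matches, or of the distance to such a match on the same fragment, in build GRCm38.p6 of RefSeq.

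F8a probe: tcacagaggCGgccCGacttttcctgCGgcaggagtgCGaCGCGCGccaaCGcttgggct
Prkab2 probe: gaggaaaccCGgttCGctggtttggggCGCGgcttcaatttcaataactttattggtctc
Gm52628 probe: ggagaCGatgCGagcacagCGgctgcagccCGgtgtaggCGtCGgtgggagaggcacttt
Notch2 probe: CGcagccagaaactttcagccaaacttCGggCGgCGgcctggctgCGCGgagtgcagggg
Rap2c probe: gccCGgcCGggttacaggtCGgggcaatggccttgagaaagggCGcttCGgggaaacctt

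The F8a probe, chrX:73228584-73228643, holds 8 CpG and measured 1.92 on array 1 and 2.32 on array 2. The Prkab2 probe, chr3:97658250-97658309, lies on the fragment with the start of the gene for a regulatory subunit of the AMP-activated kinase, holds 4 CpG and measured 1.97 and 2.17. The third, chr3:96601184-96601243, lies in the start window of Gm52628 and is named for the promoter of Lix1 in the study's list of ORIs. It measured 1.82 and 2.26. The Notch2 probe, chr3:98013520-98013579, is centred 12 bp after the start of this gene for a signalling receptor and measured 1.89 and 2.02. The Rap2c probe, at the promoter of a small GTPase gene in the study's list, has no position in GRCm38.p6 here and measured 1.67 and 2.21. These 5 probes were high on both arrays, with mean log2 ratios from 1.94 to 2.12, an SE of 0.22 (n = 2 arrays) and limma adjusted p between 3.24e-05 and 4.35e-05. Their log2 genomic signal was low, from 4.49 to 5.30 on array 1 and from 5.42 to 6.73 on array 2. The medians of all tiled probes were 6.65 and 8.10. The part of the low genomic signal in these ratios was not tested.

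Across the 15478 probes with both values the log2 ratios of the arrays correlated with r = 0.59 (Spearman's rho 0.58), a description over probes that share libraries and base composition. The sign was the same for 70.6% of the probes. The ratios were skewed towards low values on both arrays, with a skewness of -0.62 and -0.84, and the lowest percentile lay at -1.37 and -1.76 while the highest percentile lay at 0.88 and 1.14. The arrays differed by more than 1 for 562 probes, or 3.63%.

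A moderated test of each probe's mean against the centre of the arrays (limma, Benjamini-Hochberg adjusted p under 0.05) called 567 probes higher, 3.66% of those tested, and 1467 lower, 9.48%. Of the calls 27.9% were higher, a split that became 11.4% with normexp background correction (66 higher and 511 lower) and 40.4% after adjustment for the base counts of the probe (1017 and 1501). The median log2 ratio was 0.79 for the probes called higher and -0.92 for those called lower. A stricter description, a value above the 0.95 quantile of each array on its own (0.62 on array 1 and 0.80 on array 2), was met by 200 probes, 1.29% of those with both values. Among probes with both values they were 27.5% of those above the quantile on array 1 and 26.5% of those on array 2, and 21.7% and 24.0% when probes without a value on the other array are counted too. Since the dyes were not swapped between these arrays, a preference of a probe for one dye cannot be told apart from an excess or a lack of nascent strands.

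**Figure D1:**
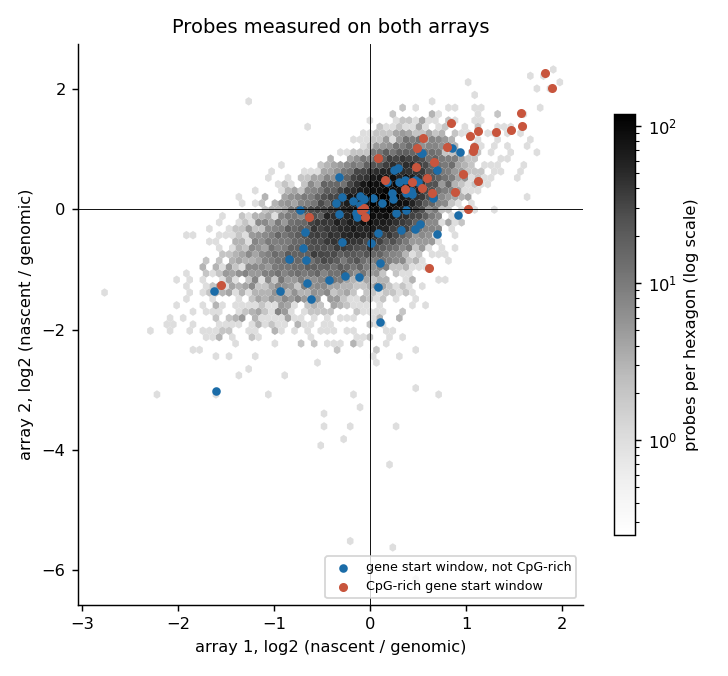
Log2 ratio of nascent over genomic DNA on array 1 (x axis) against array 2 (y axis) for the 15478 probes with both values, as counts per hexagon on a log grey scale, with probes in gene start windows as coloured points. CpG-rich gene starts in red reach 1.82 and 2.26 at the upper right, and the long tail below runs down to -6.15 on array 2 alone.

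Gene starts were examined without regard to the study's list, by matching the probes to RefSeq windows from 250 bp before to 50 bp after a start. The match found 125 probes in windows of 104 genes, all with the plus strand of the genome. A window of 300 bp was called CpG-rich when its C+G content was at least 50% and its ratio of observed to expected CpG at least 0.6. The ratio was high at these starts. The 44 probes in CpG-rich windows of 40 genes had a mean log2 ratio of 0.63 on array 1 and 0.67 on array 2, and 17 of the 33 tested were called higher, 51.5% against 3.66% of all probes. The 81 probes in the other windows, of 66 genes, averaged 0.03 and -0.14, and 5 of 57 were called higher and 9 lower. Under normexp background correction the calls at CpG-rich starts fell to 4, with means of 0.44 and 0.58 over the tested probes. Each array gave the difference between the kinds of start by itself. Above its own 0.95 quantile lay 21 of 41 CpG-rich start probes on array 1 and 15 of 35 on array 2, against 9 of 72 and 4 of 64 at the other starts.

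The called CpG-rich starts belong to genes of varied roles. Hprt, which encodes an enzyme of purine salvage, measured 1.57 on array 1 and 1.61 on array 2 at a probe centred 78 bp before the start, chrX:52987970-52988029. Bcap31, the gene for a membrane protein of the endoplasmic reticulum, measured 1.58 and 1.38. Chromatin proteins are encoded by Hmgb3 (1.46 and 1.31) and Chd1l (1.31 and 1.28). For all 4 the arrays differed by far less than the distance of either value from 0.

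Irak1, a kinase gene of interleukin-1 receptor signalling, measured 1.13 and 1.30. A single probe lies between the divergent starts of Idh3g, which encodes a subunit of a mitochondrial isocitrate dehydrogenase, and Ssr4, and gave 0.84 and 1.43. The ribosomal protein gene Rpl10 measured 1.04 and 1.21. The phosphatase gene Mtmr1 (1.08 and 1.04) and Vma21 (1.07 and 0.97), which is needed to assemble the vacuolar proton pump, complete the starts tested with a mean above 1. All of these lie on the X chromosome, and none of their values was below 0.84.

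Smaller enrichments passed the test at the starts of Zfp185 (0.55 and 1.19), Rap2c (0.48 and 1.01), L1cam, a gene of neural cell adhesion (0.67 and 0.78), and at a second shared probe of the sterol synthesis gene Nsdhl and the centrin gene Cetn2 (0.97 and 0.59). A CpG-rich window was not enough for a call. The starts of Pde4dip gave 3 probes with mean log2 ratios of -0.06, -0.09 and -0.19, none of them called. At Flna, the filamin A gene, a probe centred 213 bp before the start measured -0.07 and 0.02. Within the F8a window, a probe centred 82 bp before the start measured 0.80 and 1.03 and another at 172 bp measured -0.63 and -0.13. The single CpG-rich start probe called lower was that of the zinc finger gene Zfp275, at -1.55 and -1.27. The Zfp275 probe and the F8a probe at 172 bp hold no CpG and, in turn, 42 and 41 pyrimidines (C or T). The Pde4dip probes hold 0, 3 and 7 CpG and the Flna probe 2.

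Among the other starts the 5 called higher included those of Plxna3, a plexin receptor gene (0.94 and 0.95), Renbp (0.85 and 1.02), Hs6st2, a heparan sulfate sulfotransferase gene (0.53 and 0.93), and Srpk3, a kinase gene (0.53 and 0.94). The 9 called lower were single probes at starts of Plac1, Gja5, Pias3, Gabra3, Ankrd34a, Cd160, Hsd3b1, Usp26 and Zfp92. Of these Plac1, a gene of the placenta, was lowest with -1.60 and -3.03, and Gja5, a connexin gene, measured -1.63 and -1.36. Gabra3, which encodes a subunit of the GABA receptor, measured -0.62 and -1.49, and on both arrays all 9 were below 0. Other probes in the same windows of Usp26 (0.17 and 0.45) and Cd160 (0.49 and 0.45) were not called. Nor were probes at another start of Cd160 (-0.30 and 0.21) and of Plac1 (-0.18 and 0.14). The called probes of Zfp92, Hsd3b1, Cd160, Ankrd34a and Gja5 hold 13 to 22 pyrimidines, and those of Plac1, Pias3, Gabra3 and Usp26 hold 31 to 33. The part of the pyrimidine number in these values was not tested. The fragment with the Pias3 start probe also holds a probe of the study's list, at the Pias3 promoter, that was called higher.

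**Figure D2:**
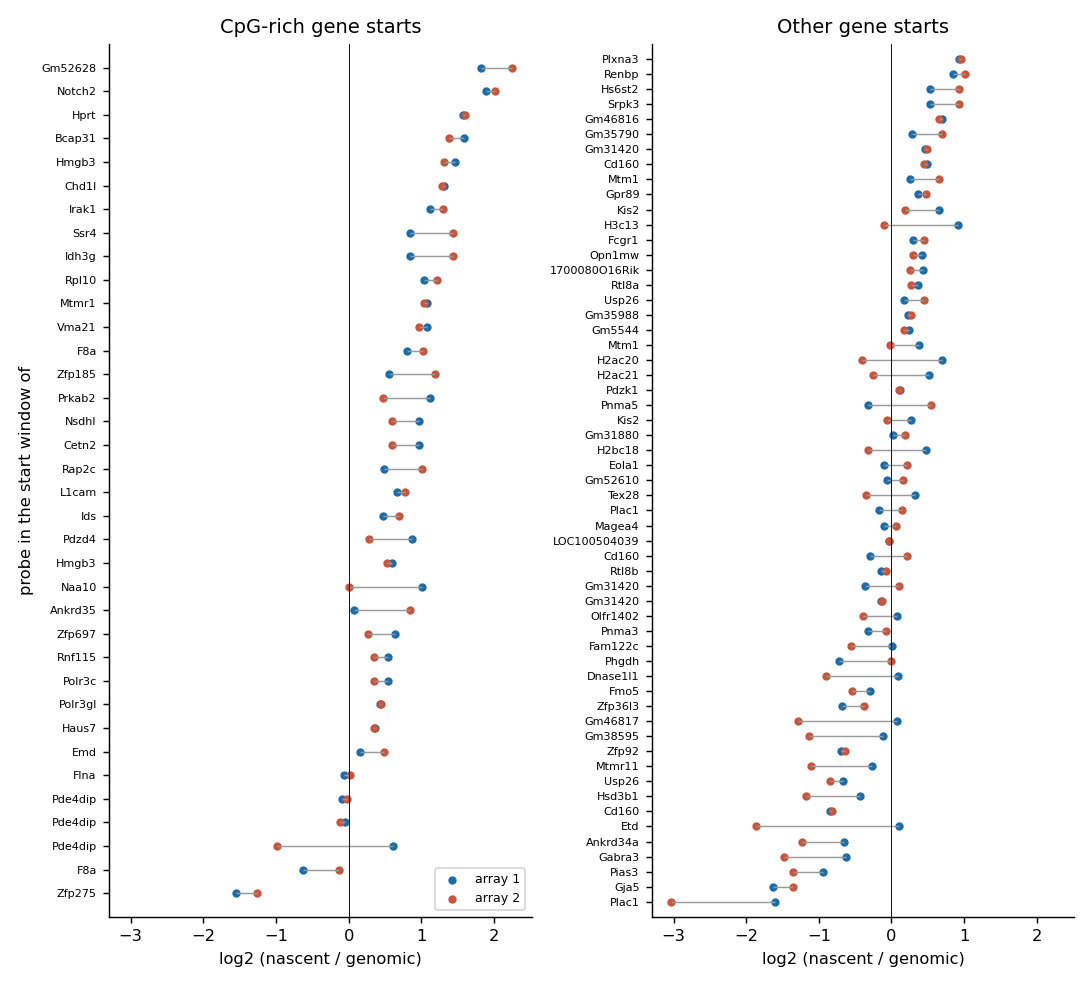
Log2 ratio (x axis) of each probe in a gene start window with values on both arrays, array 1 in blue and array 2 in red, joined by a line, ordered by mean. In the CpG-rich starts on the left 17 of 33 probes were called higher and 1 lower, and in the other starts on the right 5 of 57 were called higher and 9 lower, with a probe shared by several genes drawn for each gene.

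Since the numbers in the probe names run against the genome coordinate (in all 21 fragments with several matched probes), the other probes of these fragments could be placed relative to the start. On fragments with a CpG-rich start the ratio was highest from 150 bp before to 50 bp after it, where the mean was 0.87 on array 1 and 0.85 on array 2 and 16 of 24 tested probes were called higher. Further upstream, to 1500 bp, 5 of 44 were called higher. Downstream the ratio fell more slowly: between 50 and 700 bp it averaged 0.46 and 0.53, with 16 of 42 called, and between 700 and 1500 bp it averaged 0.02 and 0.06, with 0 of 21 called higher by limma (3 at an unadjusted p under 0.05) and 2 lower. The 16 probes called nearest the start lie on 16 fragments.

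The fragments with other starts had another shape. From 350 bp before to 50 bp after the start the mean was 0.01 on array 1 and -0.19 on array 2. Of 67 tested probes 6 were called higher and 12 lower, 17.9% against 9.48% of all probes. This range takes in the start windows described above. In the narrower range used for CpG-rich starts, from 150 bp before, the means were 0.09 and -0.17, with 4 of 37 called higher and 6 lower. Further upstream, from 1500 to 350 bp before, they were 0.13 and 0.07, with 4 of 49 called higher and 4 lower. Downstream, from 50 to 1500 bp, the mean was 0.28 and 0.27, with 21 of 92 called higher, 22.8%, and 3 lower. The 21 probes lie on 15 fragments. The class rests on the start window alone, and some of its fragments hold probes that the study lists as ORIs at CpG islands. Those of Hs6st2, Pias3 and Bola1 are among them. Of the 21 downstream probes called higher, Srpk3 and Trex2, which encodes an exonuclease, gave 3 each. The histone genes H2ac20, H2ac21 and H2bc18 were among the rest.

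**Figure D3:**
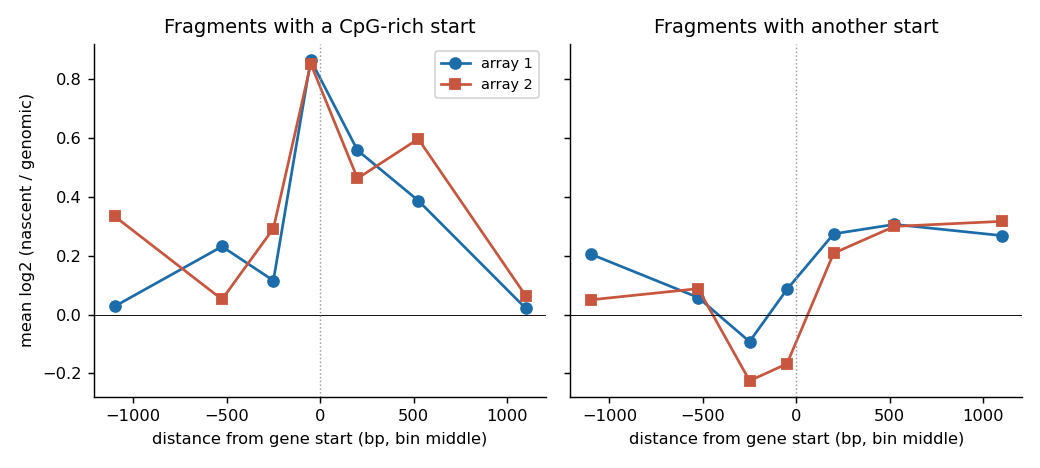
Mean log2 ratio (y axis) by distance from the nearest gene start in the direction of transcription (x axis, middle of each bin in bp) on array 1 (blue circles) and array 2 (red squares), for fragments with a CpG-rich start (left) and with another start (right). The left peak stands at 0.87 and 0.85 next to the start, and the right profile is lowest just before the start and near 0.3 after it.

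The number of CpG in a probe went with its ratio on both arrays, as a description over probes. Probes without CpG averaged -0.08 on array 1 and -0.10 on array 2, those with 2 or 3 CpG 0.08 and 0.11, those with 4 or 5 CpG 0.43 and 0.47, and the 42 probes with 6 or more 0.90 and 0.90. The share called higher rose along these classes from 2.03% without CpG over 7.77% and 33.6% to 77.1%, or 27 of 35. Along these classes the nascent signal rose on both arrays, while the genomic signal rose slightly up to 2 or 3 CpG and was lower from 4 CpG on. The median log2 nascent signal on array 1 was 8.05 without CpG and 8.59 with 6 or more, and the genomic signal was 6.62 without CpG, 6.72 with 2 or 3 and 6.09 with 6 or more. On array 2 the nascent signal was 9.47 and 10.1 in the end classes, and the genomic signal was 8.09, 8.18 and 7.76.

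C+G content showed the same order, from -0.11 and -0.15 below 40% to 0.47 and 0.47 at 60% and over. Within the narrow range of 50% to under 60% the ratio still rose with the number of CpG. Probes there without CpG averaged -0.04 and 0.06 and were called higher in 5.88% of cases, and those with 4 or more averaged 0.44 and 0.51 and were called in 36.2%. The mean C+G content of these groups was 52.1% and 54.7%. With the ratios adjusted for C+G content, the difference between probes with 4 or more CpG and those with none fell from 0.63 to 0.31.

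CpG-dense probes outside the matched start windows were also high. The 206 such probes with 4 or more CpG averaged 0.49 on array 1 and 0.52 on array 2, with 62 of 156 called higher, and the 22 in the windows averaged 0.79 and 0.91, with 11 of 16 called. The windows hold only part of all promoters, so the former are not all away from genes. Inside CpG-rich windows the 7 probes with fewer than 2 CpG averaged 0.09 and 0.19, with 1 called higher and 1 lower, and the 37 with 2 or more averaged 0.74 and 0.79.

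A further feature was the balance of pyrimidines (C and T) and purines (A and G) on the printed strand. It was examined after the values had been seen. Probes with an even balance, 27 to 30 pyrimidines in 60 bases, averaged 0.09 on array 1 and 0.04 on array 2, and 4.83% of them were called lower. With 22 or fewer pyrimidines the means were -0.24 and -0.39, and 21.9% were called lower. At the other end, with 39 or more, they were -0.53 and -0.28, and 27.6% were called lower. Probes at both ends were thus below the centre on both arrays, and the mean C+G content of the 3 classes was 42.8%, 42.0% and 43.1% in order of pyrimidines. Under normexp background correction 4.43% of the purine-rich and 16.4% of the pyrimidine-rich probes were called lower, against 2.14% of all probes between them.

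The 2 lowest called probes of each end with values under -1 on both arrays are shown here. Capitals mark runs of at least 6 pyrimidines or 6 purines.

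fragment 108554: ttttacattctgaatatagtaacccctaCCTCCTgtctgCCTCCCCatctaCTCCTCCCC
fragment 65401: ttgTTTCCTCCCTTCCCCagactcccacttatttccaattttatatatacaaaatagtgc
fragment 43367: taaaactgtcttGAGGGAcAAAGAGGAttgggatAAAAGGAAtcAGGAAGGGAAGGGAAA
fragment 106887: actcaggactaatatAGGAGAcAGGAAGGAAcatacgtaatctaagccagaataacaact

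The probe of fragment 108554 (chromosome 3, 45 pyrimidines) measured -2.31 and -2.06 and that of fragment 65401 (X chromosome, 41 pyrimidines) measured -1.85 and -2.31. The purine-rich probes of fragments 43367 and 106887, with 13 and 21 pyrimidines, measured -2.80 and -1.36 and, in turn, -1.35 and -2.76. Their 2 values lay further apart than those of the pyrimidine-rich probes. The letters CCTCC, searched on the printed strand with overlaps allowed to other motifs, stood in 919 of the tested probes, 5.94%, and 22.4% of these were called lower and 2.29% higher. The reverse complement GGAGG stood in 894, 5.78%, of which 10.6% were called lower. The signals of both dyes rose with the number of C in the probe, with r from 0.48 to 0.69 across probes. With the number of G they fell, with r from -0.16 to -0.33. Both samples had been labelled with dyes attached to dCTP. The part of the labelling in these values was not tested.

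The 2 arrays did not respond to the single bases in the same way. The ratio rose with the number of G on array 1 (r = 0.27 across probes) and hardly on array 2 (0.04), and went with C in opposite directions (-0.12 and 0.15). Counts of A, C and G with their squares explained 19.0% of the variance of array 1 and 10.6% of that of array 2. After both were adjusted for these counts, an alternative added after seeing the data, the CpG-rich gene starts gave 17 calls of 33, as many as before. Over all tested probes the number called higher rose from 567 to 1017 under this adjustment. Adjustment for C+G content alone left 12 calls at the CpG-rich starts, with means of 0.49 on array 1 and 0.39 on array 2 over the tested probes. Median centring in place of loess left 13. Over all tested probes these 2 settings called 872 and, in turn, 358 higher. The adjustment for base counts moved the shares of purine-rich and pyrimidine-rich probes called lower to 16.2% and 18.3%, against 8.34% of all probes between them. With the adjustment for C+G content alone these shares were 22.9% and 29.1%, against 6.79%.

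**Figure D4:**
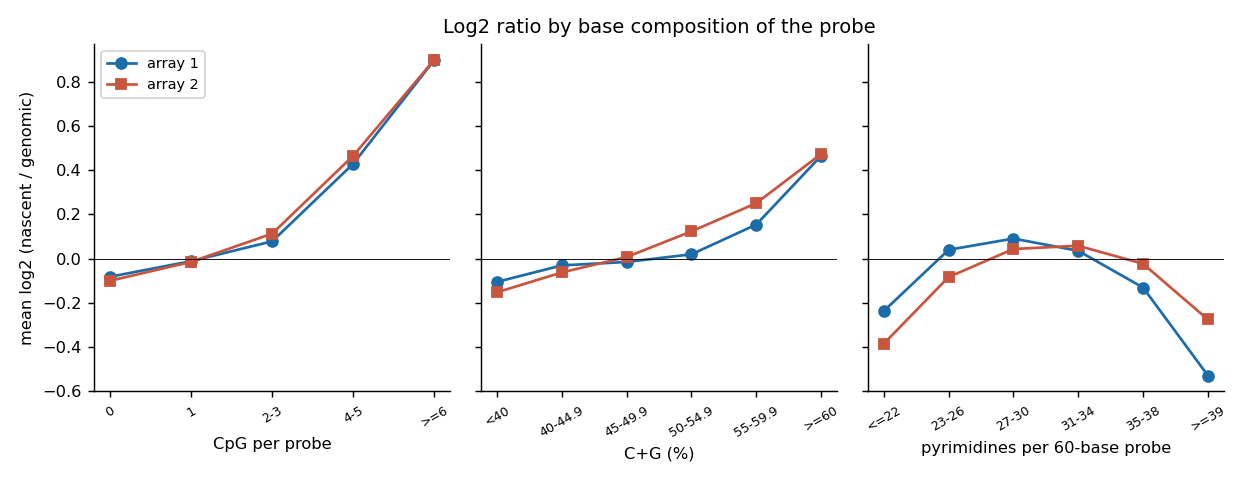
Mean log2 ratio (y axis) of the probes on array 1 (blue circles) and array 2 (red squares) by number of CpG (left), C+G percentage (middle) and number of pyrimidines in 60 bases (right). The first 2 panels rise to 0.90 and to 0.47, and the right panel is below 0 at both ends.

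The length of the fragment on which a probe lies went with its ratio as well. Probes on fragments up to 100 bp averaged -0.29 on array 1 and -0.28 on array 2, and 20.7% were called lower and 1.02% higher. On fragments over 1600 bp the means were 0.05 and 0.08, and 6.47% were called lower and 6.55% higher. The classes between them followed in order on both arrays. The mean C+G content rose with the length as well. It was lowest on the fragments up to 100 bp, 39.5% on those of over 100 to 200 bp and 44.3% on the longest, and its part in the order was not tested.

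Among the 3 regions, X region 2, the one with the higher fragment numbers, had the largest share of probes called higher, 4.30% of 5507, against 3.84% of 4667 in X region 1 and 2.85% of 5304 on chromosome 3. The arrays did not order the regions alike, since X region 1 had a mean of -0.05 on array 1 and 0.06 on array 2.

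An ORI wider than the probe spacing should appear on neighbouring probes, which makes clusters of high probes informative. With high defined as a mean above its 0.95 quantile (0.64, passed by 5.00% of 19635 probes), 89 clusters of 2 or more neighbouring high probes were found within fragments, with a median span of 340 bp. They held 195 of the 982 high probes, 19.9%. The probe after a high one was high in 17.4% of pairs, and after any other probe in 5.82%. X region 2 held 52 of the 89 clusters and 14 of the 15 with 3 or more probes, and its neighbouring pairs were both high in 1.90% of cases, against 0.72% on chromosome 3 and 0.66% in X region 1. A matched gene start or a listed ORI lay on the fragment of 34 of the 89, 38.2%, against 8.20% of all neighbouring pairs.

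Clusters of probes above the quantile on each array separately numbered 9. The highest were on fragment 65030, at the Prrg3 promoter, whose probes measured 0.81 and 1.74 on array 1 and 1.73 and 2.02 on array 2, and on fragment 67134, at the promoter of Hcfc1, which encodes a co-regulator of transcription. The Hcfc1 probes are shown because they stood high with few CpG, marked in capitals.

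Hcfc1 probe a: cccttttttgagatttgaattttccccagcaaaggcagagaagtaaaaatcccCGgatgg
Hcfc1 probe b: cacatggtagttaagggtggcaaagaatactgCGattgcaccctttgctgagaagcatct

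Probe a measured 1.19 and 1.71 and probe b 1.75 and 1.66, at a C+G content of 43.3% and 46.7% and 1 CpG each. The F8a cluster was the only one with 3 probes. They spanned 760 bp with 21 CpG and measured 1.66, 1.92 and 0.80 on array 1 and 1.09, 2.32 and 1.03 on array 2, while the probes on either side measured 0.24 and -0.63 on array 1 and 0.19 and -0.13 on array 2. The high ratio at F8a thus ended within the fragment on both arrays. The cluster probes hold 8, 8 and 5 CpG and those on either side 3 and 0, and the part of base composition in the drop was not tested.

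The other 6 clusters had mean log2 ratios from 0.97 to 1.15. They lay at the start of Hmgb3 (1.21 on array 1 and 1.08 on array 2), at the promoter of the glypican gene Gpc3 (0.91 and 1.31), inside Srpk3 (0.89 and 1.32) and on the fragment with the start of Trex2 (0.75 and 1.19). For fragments 105883 on chromosome 3 (1.20 and 1.05) and 66908 on the X chromosome (0.77 and 1.26) no gene start was matched and no ORI is listed.

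Because a cluster chosen on a mean owes part of its height to the choice, clusters were also chosen on one array and read on the other. Of 61 clusters chosen on array 1, 41 had all values on array 2, and their median log2 ratio there was 0.64, against 0.08 over all 6549 neighbouring pairs. Their mean lay above the 0.95 quantile in 14, or 34.1%, against 2.86% of all pairs. In the reverse direction, 38 of 56 clusters chosen on array 2 had all values on array 1, with a median of 0.51 against 0.07, and 12, or 31.6%, lay above the quantile against 2.51%. In neither direction did a cluster average below 0. The clusters had a higher C+G content than all pairs, 52.1% and 48.0% against 43.4% and 43.1%, and its part in these values was not tested.

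The reach of a high probe was read in the same way. Probes high on array 1 averaged 0.54 on array 2, their neighbours 60 to under 200 bp away 0.28, and those 200 to under 400 bp away 0.20. From 400 to under 2000 bp the means were between 0.14 and 0.17. Probes high on array 2 averaged 0.46 on array 1, followed by 0.26 and 0.13 at the same distances and by 0.12 to 0.15 further out. No further fall was seen beyond 400 bp on either array, and the distant neighbours stayed above the average of all probes, which was -0.04 on each. The neighbours' C+G content, between 45.1% and 46.7%, was above the 42.2% of all probes at every distance.

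**Figure D5:**
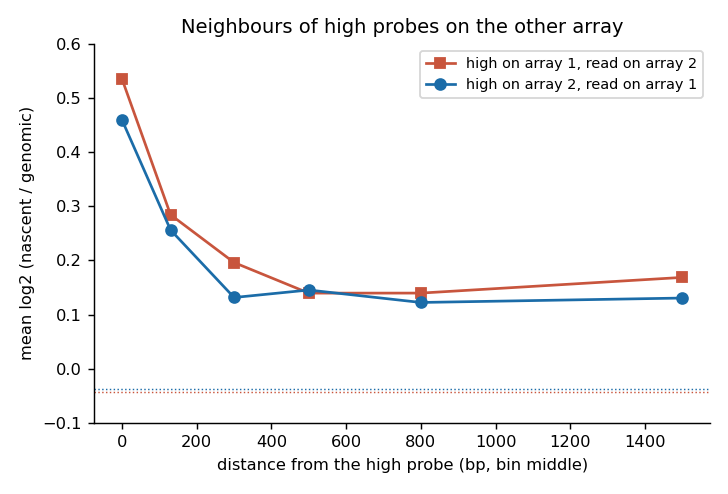
Mean log2 ratio (y axis) of the probes at a given distance (x axis, middle of each bin in bp, 0 for the probe itself) from a probe above the 0.95 quantile of the other array, with dotted lines for the mean of all probes. The mean falls from 0.54 and 0.46 to below 0.2 within 400 bp and then stays level above the dotted lines.

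Neighbouring probes whose starts were under 150 bp apart correlated with r = 0.27 within array 1 and 0.18 within array 2 over 1005 pairs, and those 400 bp or more apart with 0.12 and 0.11 over 1207 pairs. Read between arrays, a probe on one against its neighbour on the other, the correlation fell from 0.14 and 0.17 to 0.08 and 0.08. The C+G content of the same neighbours correlated with 0.39 and 0.34.

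The study's list of ORIs holds 150 probes, all found on the arrays, and was read here as 99 ORIs, a row without a name at another promoter being counted as its own. This number and the sizes of the classes below come from this reading of the list and differ from the study's own count. The list was drawn up by the study from the arrays of longer strands of the same cells and is not independent evidence. At CpG island-ORIs, those at a promoter or histone gene with an island, 35 of 57 tested probes were called higher, 61.4%, and 26 of 38 ORIs held at least 1 such probe. Of 60 probes at non promoter-ORIs 9 were called, 15.0%, and of 11 at other promoters 2, against 3.66% of all probes. On array 1 alone 36 of 64 CpG island probes and 3 of 64 non promoter probes lay above the 0.95 quantile, and on array 2 alone 38 of 60 and 13 of 65. The non promoter-ORIs, at 4.69% on array 1 and 20.0% on array 2, were therefore seen mainly on the latter.

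The 10 listed ORIs with the highest mean were all CpG island-ORIs. Besides those of Prkab2, Lix1, Notch2, F8a, Prrg3 and Hcfc1 they were the promoters of Rap2c (1.40 on array 1 and 1.59 on array 2 over 2 probes), G630014P10RIK (1.36 and 1.55), Za20d1 (1.52 and 1.31) and Chd1l (1.10 and 1.54 at the listed probe). In 23 ORIs, most of them with a single listed probe, every listed probe was called higher. Of these 16 were CpG island-ORIs, which also included the promoters of Flna, LOC100040271, Gpc3, Ace6 and 1810037G04Rik and the histone gene Hist2h2ab, with means between 0.69 and 1.21.

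The 6 non promoter-ORIs with every probe called lie in an intergenic stretch (ORI 108934, 0.87 and 1.18), in exons of Polr3gl (1.52 and 0.49), Plxb3 (0.51 and 1.49) and Phgdh (0.43 and 1.14), in an intron of Mbn13 (0.49 and 1.09) and in the last exon of Zfp697 (0.64 and 1.14). The Zfp697 ORI has 2 listed probes and is marked with a CpG island in the study's list. The other 5 have 1 listed probe each. In 5 of the 6 the value on array 2 was the higher one. The remaining one of the 23 was the alternative promoter of Flna, which has no CpG island, at 1.27 and 0.64, while the Flna island promoter measured 0.62 and 1.80. At Hprt the listed probe next to the start (1.57 and 1.61) and the listed probe on the neighbouring fragment (-0.03 and 0.32) differed widely on both arrays.

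Of the 567 probes called higher, 64 were in a matched start window or in the study's list, 11.3% against 1.38% of all tested probes. The list comes from the arrays of longer strands of the same cells and is not independent of this share. Fragments with neither held 438, or 77.2%, against 95.2% of all tested probes. Probes without CpG made up 184 of the 567, 32.5%, against 58.4% of those tested.

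Among the 5 lowest called probes, the means of 3, on fragments 43315, 65208 and 45698, rested on array 2 alone. They measured -0.19, 0.46 and 0.24 on array 1 and -5.51, -6.15 and -5.63 on array 2, where the log2 genomic signal was 13.3, 13.4 and 13.2 against 6.04, 5.92 and 6.03 on array 1. The other 2 were low on both arrays, the probe of fragment 108699 on chromosome 3 at -2.23 and -3.08 and the Plac1 start probe at -1.60 and -3.03.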

How the data were processed

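For each array the authors deposited the intensity of both dyes per spot from Agilent Feature Extraction 7.5.1, after the software's background and spatial correction, with the dyes not normalised. Probes were designed on Ensembl mouse sequence by the study. Control spots and spots marked as not uniform, outliers or not found were left out. The log2 ratio of Cy5 over Cy3 was loess-normalised within each array (span 0.3, 4 iterations; the study also used loess), and repeated spots were averaged. Each probe's mean over the 2 arrays was tested against 0 with limma 3.58.1 in R 4.3.3, with 1 residual degree of freedom and 18.0 from the prior, and Benjamini-Hochberg adjustment over 15478 probes. The fit and the cluster search were tested on simulated data. Counts and figures used pandas 2.3.3 and matplotlib. With 2 arrays the number of arrays limits the precision. The members and lists were chosen with earlier results of these data known; gene start windows (RefSeq, GRCm38.p6), pyrimidine classes and motifs were added after the values had been seen. Named were clusters high on both arrays, the 5 highest and lowest called probes, the 10 highest listed ORIs, those with every probe called, and promoter ORIs of Hprt, Flna and Notch2. Alternatives covered centring, background correction, marked and saturated spots, quantiles, CpG classes, C+G content and each array alone. The arrays of longer strands were not used here.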

Additional observations from a re-analysis of the deposited data

How the results depend on the processing

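Of 86 recomputed values, 62 stayed within 1.5 times the reported count or, for the CpG difference, within the SD of the arrays, and 24 moved. The 62 include the values with saturated spots left out, which could not move because no spot was saturated. A change of sign was possible only for the CpG difference, since the other values are counts or squared correlations. The CpG difference stayed positive under its 11 alternatives, between 0.31 and 0.99. The squared correlation of the arrays, 0.351, lay between 0.298 and 0.352 under its 7 alternatives. Probes called higher by limma numbered 358 with median centring in place of loess, 66 with normexp background correction, 872 after adjustment for C+G content, 1017 after adjustment for base counts, and 1124 at an adjusted p under 0.10. Probes called lower fell to 511 with normexp. At CpG-rich gene starts normexp left 4 calls, and C+G adjustment left 13 probes above the 0.95 quantile in place of 20. The CpG difference of 0.63 became 0.56 with normexp, 0.31 after C+G adjustment, 0.55 after adjustment for base counts, 0.40 with CpG-rich set from 3 CpG and 0.99 from 6 CpG. The 0.90 quantile gave 510 probes high on both arrays, 220 clusters and 46 of 3 or more probes, and the 0.98 quantile gave 60, 30 and 4. Clusters high on both arrays separately numbered 9, with 1 of 3 probes. With either array left out, clusters numbered 56 to 61, those of 3 or more probes 6 to 8, the CpG difference was 0.60 to 0.65, and 15 to 21 probes at CpG-rich gene starts lay above the quantile. The causes of these moves were not tested.

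The limma counts, the probes high on both arrays and the correlation have no value with 1 array. No paired analysis was possible because only 1 group of 2 arrays was analysed. Spots left out were most frequent on array 2, and the adjustment for base counts and the alternatives at gene starts were chosen after seeing the data.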

Other observations

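Each array also carries 24 probes outside the tiled regions, in 72 spots. Their median processed signal was 59.3 for nascent strands and 24.5 for genomic DNA on array 1, and 177 and 74.8 on array 2, below the medians of the tiled probes. In 4 tiled probes the arrays differed by more than 4 on the log2 scale, and in each the value of array 2 was the lower one. The SD between repeated spots of a probe was 0.12 on array 1 and 0.24 on array 2.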
